A study of Mus musculus with 4 samples.

Results

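The 9 genes described here mark bile duct cells and the ductular reaction, the outgrowth of duct-like cells that accompanies chronic liver injury. They were taken as a fixed set of symbols (Krt7, Krt19, Krt8, Krt18, Epcam, Sox9, Cd24a, Cftr and Prom1) out of 18194 genes with a probe set of their own, a rule that uses no measured value, although the set was drawn up with earlier results of these data known. Where a gene had several probe sets, the brightest on average stands for it, and all 9 passed the filter on low values. The series profiled total RNA from fibrotic liver of C57BL/6 mice, described by the submitters as cells of marrow origin that had moved into the tissue. The tested mice received recombinant human granulocyte colony-stimulating factor (G-CSF) at 100 μg/kg, and the control mice received phosphate-buffered saline (PBS) carrying 0.1% mouse serum albumin, in both cases during the final 7 days before the last toxin injection. Every mouse in both groups had also been given 30 injections of carbon tetrachloride, a liver toxin, at 1 ml/kg, so no uninjured liver serves as a baseline here. There were 2 arrays per group, and the labels do not say whether they came from separate animals or from pools, nor how the cells were separated from the tissue, so p-values measure only the spread between these arrays.

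Cholangiocytes, the epithelial cells that line bile ducts, are set apart from hepatocytes by keratins 7 and 19, while keratins 8 and 18 form the filaments of both cell types. In chronic injury, duct-like cells positive for these keratins, EpCAM and SOX9 spread from the portal tracts into the lobule, and Notch, TWEAK and Hippo signals are known to take part. Some of the same surface proteins, CD24 above all, are also carried by blood cells.

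One PBS array stood apart from the other 3. Over 12187 tested genes, the Pearson correlation of PBS replicate 1 with the other arrays on the log2 scale was 0.8125 to 0.8444, against 0.9385 to 0.9743 among the others. It carried thymocyte transcripts: Rag1, the recombinase of developing lymphocytes, had a signal of 6016 there and 1.61 to 2.20 on the other arrays. Results are therefore also given against each PBS array alone. Hepatocyte transcripts were abundant on every array in spite of the marrow-derived label, with albumin (Alb) at 52315 and 46302 with G-CSF and 43301 and 46068 with PBS. Gapdh controls, read as 3′ signal over 5′ signal to gauge RNA integrity, gave ratios of 20.2 and 19.1 with G-CSF and 15.7 and 14.8 with PBS. Actb controls gave 12.6 and 13.7 with G-CSF and 11.2 and 9.88 with PBS, so the 3′ signal far exceeded the 5′ signal on every array. The part of RNA integrity in the results was not tested. In RNA of mixed cells, fewer duct cells and less RNA per duct cell cannot be told apart.

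No bile duct gene differed between G-CSF and PBS by more than the spread of the arrays. In limma, 0 of 9 passed an adjusted p of 0.05, as did 0% of all 12187 genes, and the adjusted p was 0.988 for each of the 9. An unadjusted p below 0.05 was reached by 0 of 9, against 3.52% of all genes, or 429. Each difference is the G-CSF mean less the PBS mean of log2(signal + 23), a scale that understates the change of weakly expressed genes, and is given ± its limma standard error (n = 2 in each group). The 9 differences ran from −0.25 to 0.81, with a median of 0.58, whereas the median of all tested genes was 0.07. Higher values with G-CSF were found for 8 of the 9, against 55.9% of all genes. Krt7 was the gene whose groups did not overlap, higher with G-CSF (1 of 9, against 18.6% of all genes in that direction), and 0 of 9 lay lower without overlap (12.1% of all genes). None of the 9 combined absence of overlap with a 2-fold difference, as 5.56% of all genes did. An exact two-sided permutation test of 2 arrays against 2 cannot go below 0.3333, so it could not pass for any gene.

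**Figure D1:**
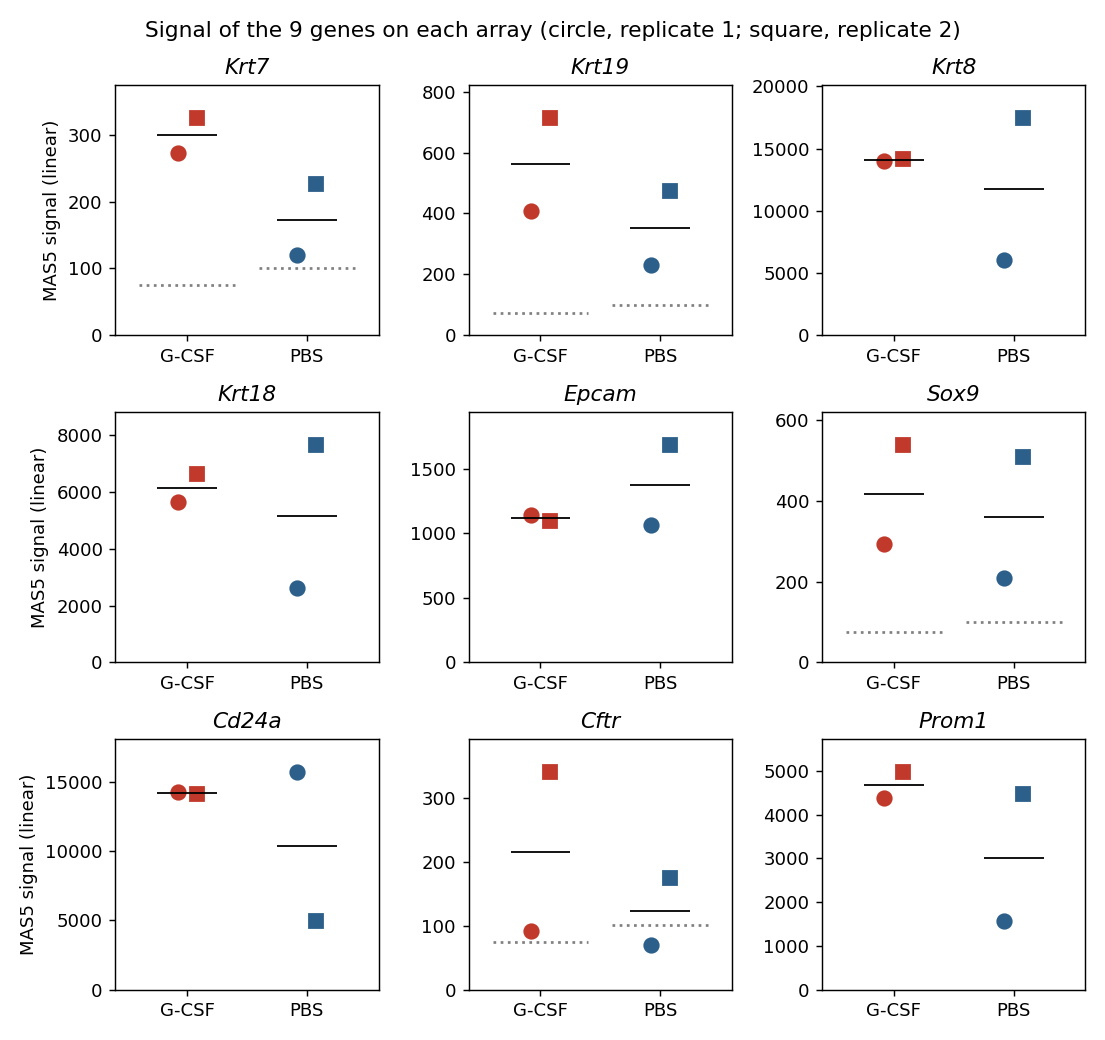
MAS5 signal (linear axis from 0) of each bile duct gene on the 2 G-CSF arrays (red, left) and the 2 PBS arrays (blue, right), with circles for replicate 1, squares for replicate 2, a bar at the mean of each group and, for weak genes, a dotted line at the mean background of that group's arrays. PBS replicate 1 is the lowest array for 8 of 9 genes and the highest for Cd24a.

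Krt7 and Krt19 are the keratins that separate ducts from hepatocytes. Krt7, a type II keratin, had signals of 273 and 325 with G-CSF, against 120 and 226 with PBS. Both G-CSF arrays lay above both PBS arrays, but the lower PBS value was little above the background of its array, 106. The difference was 0.77 ± 0.43, with a 95% interval of −0.32 to 1.85, and it was 1.17 against PBS replicate 1 alone and 0.37 against PBS replicate 2 alone. Krt19, the type I partner used most often to count ductular cells, had signals of 408 and 715 with G-CSF, against 230 and 473 with PBS. The groups overlapped, since PBS replicate 2 exceeded G-CSF replicate 1. Its difference was 0.67 ± 0.50 (95% interval −0.60 to 1.94), or 1.16 and 0.18 against PBS replicates 1 and 2 alone. For both keratins the interval reaches past a 3-fold increase (upper limits of 3.62-fold and 3.84-fold), so these arrays could not separate an increase of that size from no change.

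Krt8 and Krt18 encode the filament pair shared by hepatocytes and duct cells. Krt8 had signals of 14038 and 14135 with G-CSF, against 6033 and 17490 with PBS. Krt18 had signals of 5655 and 6643 with G-CSF, against 2639 and 7669 with PBS. For both genes the G-CSF arrays lay between the 2 PBS arrays, so the groups overlapped. The differences were 0.45 ± 0.55 for Krt8 and 0.44 ± 0.57 for Krt18, with 95% intervals of −0.95 to 1.86 and −1.005 to 1.89. Their sign depended on the PBS array: against PBS replicate 1 alone they were 1.22 and 1.21, and against PBS replicate 2 alone −0.31 and −0.32. The pair ran closely in parallel over the 4 arrays. PBS replicate 2 exceeded PBS replicate 1 by 2.90-fold for Krt8 and by 2.91-fold for Krt18, and the Euclidean distance between their mean-centred log2 profiles, 0.157, was the smallest among the 36 pairs of the 9 genes.

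Because these 2 genes moved together, their promoter windows are shown, 250 bases before to 50 bases after the annotated start (RefSeq, GRCm38.p6). Krt8 lies on the minus strand at chr15:102004293-102004592 and Krt18 on the plus strand at chr15:102027966-102028265. Windows were available for 6 of the 9 genes (Krt7, Krt8, Krt18, Epcam, Cftr and Prom1). Capitals mark matches on either strand to a TATA box (TATAAA), an SP1 box (GGGCGG), an AP-1 site (TGANTCA) or the E-box bound by Snail and Zeb factors (CACCTG).
Krt8: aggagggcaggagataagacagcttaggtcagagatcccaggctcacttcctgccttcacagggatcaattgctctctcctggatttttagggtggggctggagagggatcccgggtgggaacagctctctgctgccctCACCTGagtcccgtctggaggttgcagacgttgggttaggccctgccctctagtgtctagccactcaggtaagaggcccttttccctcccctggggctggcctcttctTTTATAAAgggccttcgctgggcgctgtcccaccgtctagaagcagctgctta
Krt18: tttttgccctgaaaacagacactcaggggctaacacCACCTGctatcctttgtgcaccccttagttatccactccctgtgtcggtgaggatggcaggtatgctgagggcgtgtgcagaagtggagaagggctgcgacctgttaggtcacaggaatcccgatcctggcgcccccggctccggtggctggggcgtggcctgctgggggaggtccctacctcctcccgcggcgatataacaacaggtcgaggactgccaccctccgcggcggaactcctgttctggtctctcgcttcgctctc
Both windows held a CACCTG match, 111 bases before the start in Krt8 and 214 bases before it in Krt18, a motif present in 20.2% of all 32851 promoter windows. The match was not particular to this pair: Krt7, Epcam and Prom1 windows held it too, and the Cftr window did not. Krt8 also held overlapping matches to TATAAA on both strands at its annotated start, and Krt18 held none (13.6% of all windows hold one). Neither window held a GGGCGG match (35.7% of all windows) or a TGANTCA match (7.81%). These are letter matches, and no binding was measured.

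Epcam, which encodes the adhesion molecule of duct and progenitor cells, was the one member with a negative difference. Its signals were 1146 and 1099 with G-CSF, against 1069 and 1687 with PBS. Both G-CSF arrays lay inside the PBS range, close to its lower end. The difference was −0.25 ± 0.37 (95% interval −1.21 to 0.70). Against PBS replicate 1 alone it was 0.069 and against PBS replicate 2 alone −0.58, while a lower probe set, with signals of 1069 and 1061 with G-CSF and 839 and 1317 with PBS, gave 0.02 over both PBS arrays. The direction of the Epcam difference was thus not settled by the arrays. Its promoter window at chr17:87635729-87636028 (plus strand, same build and capitals) is given beside those of the 2 keratins. It held an SP1 box, read on the other strand, 58 bases before the start, and E-box matches 187 and 19 bases before it.
Epcam: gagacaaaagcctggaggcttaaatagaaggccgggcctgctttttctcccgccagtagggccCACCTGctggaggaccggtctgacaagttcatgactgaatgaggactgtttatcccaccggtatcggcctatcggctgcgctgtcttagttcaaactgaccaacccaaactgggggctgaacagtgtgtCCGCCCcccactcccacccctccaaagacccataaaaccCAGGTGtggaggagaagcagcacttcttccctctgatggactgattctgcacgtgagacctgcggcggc

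Prom1 encodes CD133, a membrane protein of ductal progenitor cells that is also known from blood progenitors. It had signals of 4373 and 4975 with G-CSF, against 1559 and 4473 with PBS. PBS replicate 2 lay inside the G-CSF range and PBS replicate 1 far below it. The computed difference, 0.81 ± 0.56 (95% interval −0.63 to 2.25), was the largest of the 9. It was 1.57 against PBS replicate 1 alone and 0.06 against PBS replicate 2 alone, so its size rested on PBS replicate 1.

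Sox9 encodes the transcription factor that marks the biliary lineage from development onward. Its signals were 293 and 539 with G-CSF, against 209 and 509 with PBS. The groups overlapped, and in each group replicate 2 was the higher array. The difference was 0.26 ± 0.55 (95% interval −1.15 to 1.67), and it was 0.86 and −0.34 against PBS replicates 1 and 2 alone. A second Sox9 probe set gave 0.32, with signals of 197 and 257 with G-CSF and 103 (below background) and 290 with PBS, and the third lay below background on all 4 arrays. Cftr encodes the chloride channel of the apical membrane of duct cells. Its signals were 91.3 and 341 with G-CSF, against 70.6 and 175 with PBS. PBS replicate 1 was below its background of 106, and G-CSF replicate 1 was barely above its own, 86.4. The difference of 0.58 ± 0.73 had the widest interval of the 9, −1.27 to 2.43, and the other Cftr probe set lay below background on every array.

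Cd24a encodes a small membrane-anchored glycoprotein of duct and progenitor cells that is also abundant on neutrophils, immature B cells and thymocytes. It had signals of 14252 and 14142 with G-CSF, against 15719 and 4954 with PBS. Here PBS replicate 1 was the highest array and PBS replicate 2 the lowest, the reverse of the other 8 genes for PBS replicate 1. The difference was 0.68 ± 0.59 (95% interval −0.81 to 2.18), or −0.15 against PBS replicate 1 alone and 1.51 against PBS replicate 2 alone. All 3 Cd24a probe sets showed the same order of arrays: the other 2 had signals of 6364 and 5646, and of 2608 and 2343, with G-CSF, against 6681 and 2461, and 3692 and 544, with PBS. Its profile over the arrays was far from every other member, at distances of 1.75 to 2.28.

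Transcripts of the blood cells that carry CD24 also differed between the arrays. Taken 1 at a time by summed signal, the neutrophil, thymocyte and B cell lists ranked the arrays in orders other than that of Cd24a. The lists were not combined, so these orders cannot decide the source of the Cd24a signal. Ptprc, the leukocyte common antigen, had signals of 14510 and 12991 with G-CSF and 31265 and 8322 with PBS, the same rank order as Cd24a. Of 11 tested neutrophil genes, 11 were higher with G-CSF without overlap (18.6% of all genes), with a median difference of 4.66 and summed signals of 274917 and 228816 with G-CSF against 28258 and 17254 with PBS. Mpo, myeloperoxidase, had signals of 11636 and 21026 with G-CSF, against 166 and 96.4 with PBS, and Camp, cathelicidin, had 23738 and 14983 against 778 and 200 (0 of the 11 passed the adjusted threshold in limma, with a smallest adjusted p of 0.0676). Thymocyte genes were summed to 13567 and 7349 with G-CSF and to 41723 and 17114 with PBS, and 7 of 9 tested were highest in PBS replicate 1. Most of the sum outside that array was Cd1d1, which is not restricted to thymocytes, at 10390 and 5804 with G-CSF and 5577 and 15154 with PBS. Dntt, for example, picked here after its values were seen, had 57.2 and 94.0 with G-CSF and 20056 and 17.2 with PBS. B cell genes summed to 3155 and 2368 with G-CSF and to 995 and 3036 with PBS, lowest where Cd24a was highest. The part of these cells in the Cd24a signal was not tested.

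**Figure D2:**
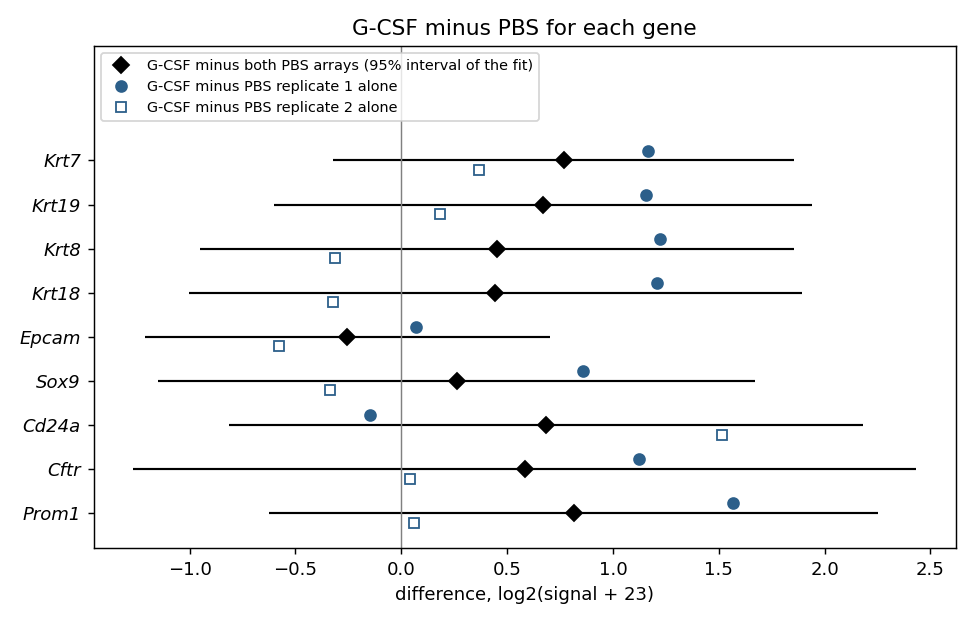
Difference between G-CSF and PBS on the log2(signal + 23) scale for each bile duct gene, as the fitted value over both PBS arrays with its 95% interval (diamond and line), against PBS replicate 1 alone (filled circle) and against PBS replicate 2 alone (open square). Every interval crosses 0, and for 8 of 9 genes the difference is larger against PBS replicate 1 than against PBS replicate 2.

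The choice of PBS array decided which genes would be called. Against PBS replicate 1 alone, limma called 5 of 9 (Krt7, Krt19, Krt8, Krt18 and Prom1, all higher with G-CSF, adjusted p = 0.00161 to 0.0431), where 38.5% of all genes were called. Against PBS replicate 2 alone it called 1 of 9, Cd24a (adjusted p = 0.00554), where 4.23% of all genes were called, and none of the 9 was called against both. With 1 PBS array these fits take the PBS spread from the G-CSF arrays and from other genes. Of the 9 genes, 8 were higher with G-CSF than in PBS replicate 1, but 5 were higher than in PBS replicate 2 (Krt7, Krt19, Cd24a, Cftr and Prom1). The median difference was 1.16 against PBS replicate 1 and 0.04 against PBS replicate 2, and over all tested genes the same medians were 0.19 and 0.00066.

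Within the PBS group, 8 of 9 genes had their lowest signal in replicate 1 (47.0% of all genes), and 1 its highest (33.7%). At least 2-fold lower in replicate 1 than in replicate 2, on the log2(signal + 23) scale, were 5 genes, namely Krt8, Krt18, Prom1, Sox9 and Cftr (20.0% of all genes), and Cd24a was at least 2-fold higher there (14.0%). By signal ratio, PBS replicate 2 exceeded PBS replicate 1 by 2.90-fold, 2.91-fold and 2.87-fold for Krt8, Krt18 and Prom1, 2.43-fold for Sox9 and 2.48-fold for Cftr. The ratio was smaller for Krt19 (2.06), Krt7 (1.88) and Epcam (1.58). Hepatocyte markers mostly behaved alike: 11 of 11 were lowest in PBS replicate 1, with a median ratio of 2.71, and 9 were at least 2-fold lower there. Alb and Ttr, with signals near the top of the range, hardly differed (ratios of 1.06 and 1.04). Hnf4a, a hepatocyte transcription factor, had signals of 5552 and 5461 with G-CSF and 1897 and 10134 with PBS. Macrophage (7 of 7), stellate (7 of 8) and endothelial (5 of 5) markers were also mostly lowest there, with median ratios of 2.51, 1.71 and 2.37. The low bile duct values in that array thus went along with low values of other liver cell types and high thymocyte values.

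A second split ran between the 2 G-CSF arrays. Cftr, Sox9 and Krt19 were 3.73-fold, 1.84-fold and 1.75-fold higher in G-CSF replicate 2 than in replicate 1. The Cftr ratio rests on a signal of 91.3 in G-CSF replicate 1, barely above the background of that array, 86.4. Krt7, Krt18 and Prom1 had ratios of 1.19, 1.17 and 1.14, and Krt8, Epcam and Cd24a of 1.01, 0.959 and 0.992. A ratio of at least 1.5, a limit set after the values were seen, was met by 3 of 9 genes on the log2(signal + 23) scale, against 6.29% of all genes. Among the other bile duct genes it was met by 7 of 19, including Muc1 (150 and 390), Pkhd1 (1114 and 2317), Ehf (495 and 956), Bicc1 (2515 and 4168) and Cdh1 (2565 and 4189), named after their values were seen. Cldn4, a tight junction gene, went the other way, at 257 and 98.8, the 1 of 19 to do so by that limit. Of the 11 hepatocyte markers, 0 met it, and 1 was higher by that limit in G-CSF replicate 1. The limit was also met by 2 of 14 genes of ductular reaction signals, 1 of 5 endothelial, 1 of 8 stellate and 0 of 7 macrophage genes. The median of G-CSF replicate 2 minus replicate 1 was 0.23 for the 9 genes and 0.47 for the other bile duct genes. It was 0.39 for the ductular signals, 0.34 for endothelial, 0.13 for stellate, −0.12 for macrophage and −0.15 for hepatocyte genes.

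**Figure D3:**
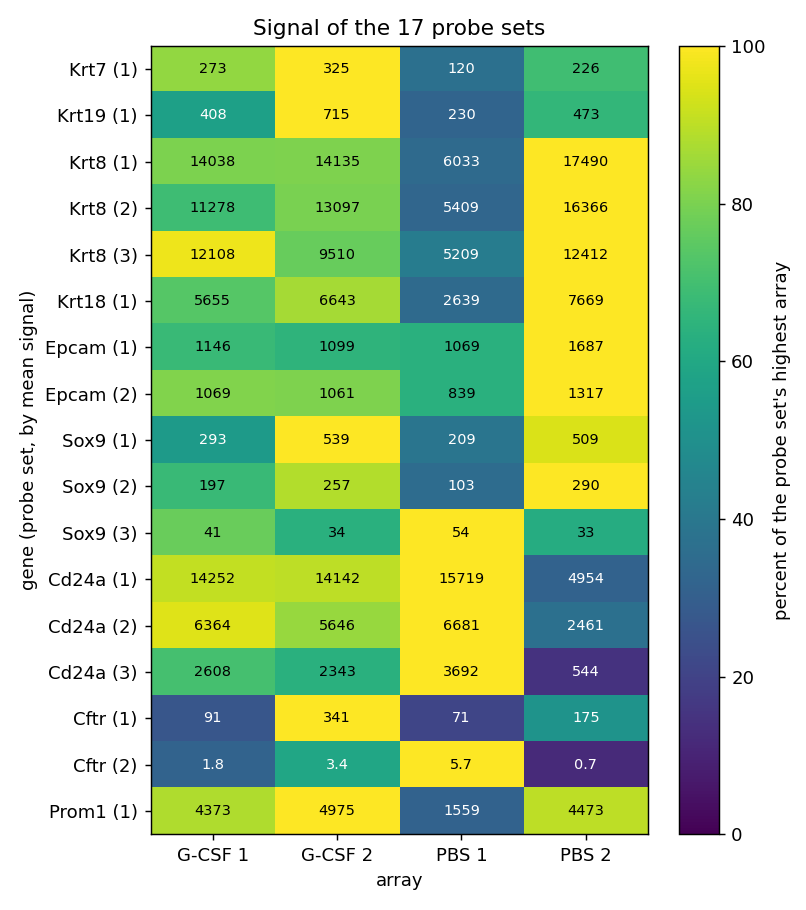
Signal of all 17 probe sets of the 9 genes on the 2 G-CSF and 2 PBS arrays, printed in each cell and coloured as a percentage of that probe set's highest array, with the probe sets of each gene numbered by mean signal. The 3 Krt8 probe sets are all lowest in PBS replicate 1, the 3 Cd24a probe sets are all lowest in PBS replicate 2, and the weakest Sox9 and Cftr probe sets lie below background.

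Several probe sets existed for 5 of the 9 genes. The 3 Krt8 probe sets gave differences of 0.45, 0.37 and 0.41, and the 3 for Cd24a gave 0.68, 0.56 and 0.78. The 2 Epcam probe sets, both above background on all arrays, gave −0.25 and 0.02, opposite in sign. The Sox9 and Cftr probe sets that pointed the other way from the brightest one, −0.12 and −0.03, were both below background. Some probe sets are of types that can bind more than 1 related transcript. These are the 2 additional Krt8 ones, the lower Epcam one, the second Cd24a one and the brightest Cftr one. In the closing section, the alternative with specific probe sets only left out these types and another type. Of that other type are the Krt7 and Prom1 probe sets, the weaker Cftr one and the brightest Krt8, Epcam and Cd24a ones.

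Other genes of the bile duct programme did not pass the test either. Of 26 further duct genes, 21 had a probe set of their own, 19 were tested, and 0 passed in either direction. Their median difference was 0.38 (range −0.03 to 0.73), with 17 higher and 2 lower, and it was 0.95 against PBS replicate 1 alone and −0.22 against PBS replicate 2 alone. St14, a membrane serine protease, had signals of 357 and 440 with G-CSF, against 224 and 299 with PBS (0.57 ± 0.35). Slc4a2, the chloride/bicarbonate exchanger through which duct cells secrete bicarbonate, had 670 and 822 against 481 and 569 (0.49 ± 0.33). These were the 2 of 19 higher without overlap, a direction in which 18.6% of all genes lay. Ehf, an epithelial ETS factor, and Cdh1, E-cadherin, differed by 0.73 ± 0.64 and 0.50 ± 0.47, and Muc1, an apical mucin, by −0.03 ± 0.74. Spp1, Ggt1 and Pkd2 were not analysed here.

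Signals known from the ductular reaction were measured by 14 tested genes, of which 0 passed, with a median difference of 0.41 (0.93 and −0.17 against PBS replicates 1 and 2 alone). Hes1, a target of Notch signalling, was lower without overlap, with signals of 417 and 574 with G-CSF against 776 and 876 with PBS (−0.73 ± 0.34, unadjusted p = 0.0867). Notch2, the receptor needed for duct formation, was higher without overlap, at 5223 and 5031 against 2717 and 3909 (0.65 ± 0.34). Ctgf, a Hippo pathway target, was also higher without overlap, at 8851 and 12360 against 2982 and 7877 (1.11 ± 0.54). The Notch ligand gene Jag1 and the receptor gene Fgfr2 overlapped, with differences of 0.41 ± 0.48 and 0.63 ± 0.49. Notch genes did not share a direction: the receptor gene Notch1 (−1.12 ± 1.16, with 10212 in PBS replicate 1) lay on the side of Hes1, and the target Hey1 (0.41 ± 0.61) on that of Notch2, both with overlap. In all, 3 of 14 were higher and 1 lower without overlap, against 18.6% and 12.1% of all genes.

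Markers of other tissues that express the same keratins were partly below background and partly above it. Of 7 mesothelial genes, 4 lay below background on all arrays, among them Msln (55.0 and 45.5 with G-CSF, 32.9 and 40.2 with PBS) and Upk3b. Gpm6a was above background on all 4 arrays, at 371 and 699 with G-CSF and 255 and 660 with PBS. Wt1 had 306 and 154 with G-CSF, and 92.8 (below background) and 274 with PBS. The summed mesothelial signal, most of it from Gpm6a and Wt1, was 869 and 1212 with G-CSF and 481 and 1067 with PBS. Among 6 thymic epithelial genes, 3 (Foxn1, Psmb11 and Ccl25) lay below background on all arrays. The sum was 687 and 679 with G-CSF and 551 and 482 with PBS. Prss16, a thymus serine protease, had signals of 366 and 335 with G-CSF and 54.2 and 136 with PBS (1.75 ± 0.48, adjusted p = 0.977 in limma). Pancreatic acinar genes summed to 2306 and 1354 with G-CSF and 1484 and 2064 with PBS, and intestinal genes to 2121 and 2152 with G-CSF and 812 and 2049 with PBS. Most of the intestinal sum was Fabp2, a fatty acid binding protein, at 1633 and 1704 with G-CSF and 471 and 1693 with PBS, and Cela1, an elastase of the acinar list, had 1244 and 1015 with G-CSF and 946 and 1247 with PBS. The part of these cells in the duct signals was not tested. Of 10 other keratin genes, 5 lay below background on all arrays, and Krt5 and Krt14 were below the filter. Krt10 was above background on all 4 arrays, at 214 and 272 with G-CSF and 259 and 230 with PBS. Krt6a had 144 and 136 with G-CSF, and 60.2 (below background) and 109 with PBS. Krt80 was the one of 3 tested with an unadjusted p below 0.05, at 261 and 382 with G-CSF against 83.6 and 141 with PBS (1.36 ± 0.43, adjusted p = 0.988 in limma).

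The other cell lists gave median differences of 0.32 for 11 hepatocyte, 0.18 for 7 macrophage, 0.37 for 8 stellate, 0.34 for 5 endothelial, 0.64 for 6 B cell, −0.48 for 3 erythroid and −2.05 for 9 thymocyte genes, and 0 of their genes passed. Acta2, smooth muscle actin of myofibroblasts, was higher without overlap, at 8941 and 10426 with G-CSF against 5164 and 3200 with PBS (1.24 ± 0.37, adjusted p = 0.988 in limma). The median of the bile duct genes, 0.58, lay above those of the hepatocyte, macrophage, stellate and endothelial lists and below that of the B cell list, and these gaps were not tested.

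**Figure D4:**
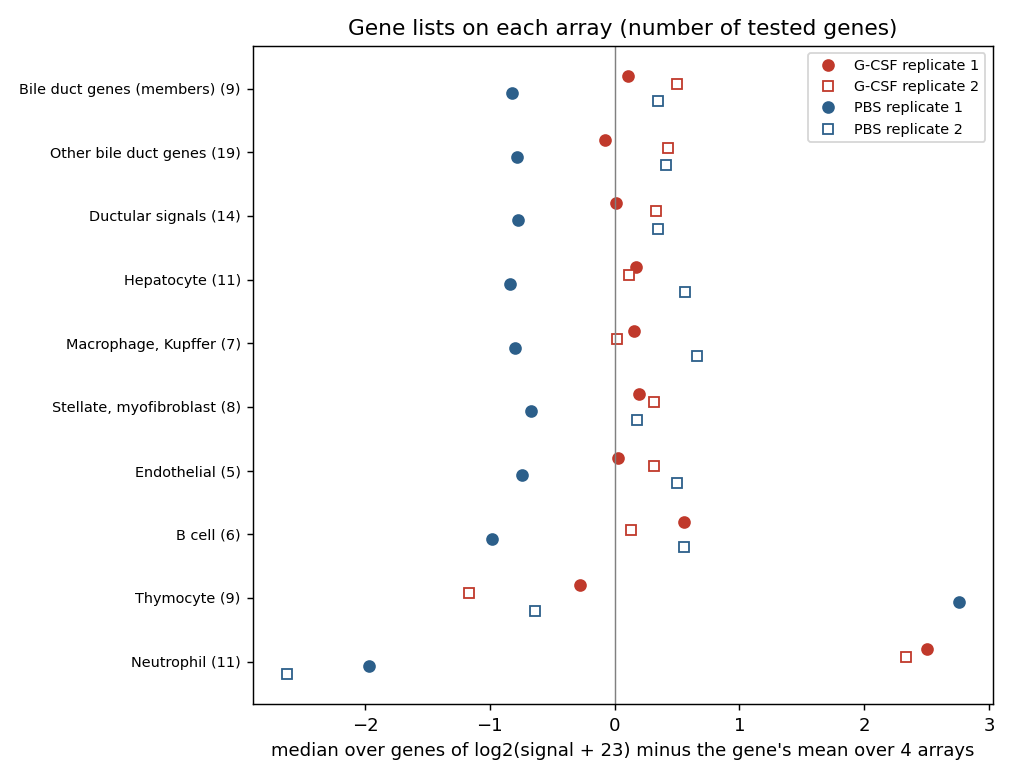
Median over the tested genes of each list of log2(signal + 23) minus the gene's own mean over the 4 arrays, for G-CSF replicates 1 and 2 (red) and PBS replicates 1 and 2 (blue), filled for replicate 1 and open for replicate 2. The bile duct lists are low in PBS replicate 1, as are the hepatocyte, macrophage, stellate, endothelial and B cell lists, while the neutrophil list separates the groups and the thymocyte list is high in PBS replicate 1.

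The genes most like Krt19 in profile, by Euclidean distance over the 4 arrays among 4772 genes that varied between them, were Eml1 (0.0827), H2-Eb1 (0.0896), Flrt2 (0.105) and Plcb4 (0.119). H2-Eb1, for example, had signals of 4814 and 8359 with G-CSF and 2747 and 5892 with PBS. For Epcam they were Clec4n (0.354), Cyp51 (0.364), Glo1 (0.382) and Hsd17b7 (0.387). These distances are not comparable with those of Krt19, since genes had to vary with an SD of at least 0.5 and Epcam itself had 0.303. Cyp51 had signals of 782 and 735 with G-CSF and 764 and 1557 with PBS, a peak in PBS replicate 2 as for Epcam. With 4 arrays, such likeness describes these arrays only.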

How the data were processed

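Total RNA (40 ng per sample) was labelled and measured on 4 Affymetrix mouse arrays, 2 with G-CSF and 2 with PBS. The deposited intensity values are linear MAS5 signals computed by the authors, per the submitters' processing notes, and the arrays share a 2% trimmed mean of 500, so none was rescaled. The version of MAS5 was not stated in the sources at hand. Precision is limited by the number of arrays.

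A pseudocount of 23 (the median signal, 92.9, divided by 4 and rounded) was added before log2. Of 45101 probe sets, 34945 list 1 gene, and 64 controls, 932 with several genes and 9160 with none were left out. A gene with several was read from the brightest on average, and the 12187 genes averaging more than 95.0 were tested with limma 3.58.1 in R 4.3.3 (lmFit, eBayes with trend, Benjamini-Hochberg over all tested genes, two-sided). The fit had 2 residual and 3.13 prior degrees of freedom and was tested on simulated data. Background was the top signal among 27 controls whose targets were taken as not spiked in. The members and lists were chosen with earlier results of these data known. Named genes were the members, up to 4 tested genes per list with the smallest p, a fixed set, and the 4 nearest profiles of Krt19 and Epcam with an SD of at least 0.5. Alternatives are given in the closing section. Figures used Python 3.11.15 and matplotlib 3.10.9.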

Additional observations from a re-analysis of the deposited data

How the results depend on the processing

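The bile duct genes called numbered 0 under all 12 alternatives that kept every array. With 1 array left out they ranged from 0 to 5, those without overlap from 1 to 9, those without overlap and at least 2-fold apart from 0 to 6, and calls over all genes from 6 to 2753 higher and from 0 to 1936 lower. Over all genes, 48.2% to 88.8% then lay without overlap and 6.92% to 27.5% also at least 2-fold apart; the highest member counts, 9 and 6, came without PBS replicate 2, as did the 88.8% and 27.5%. Without PBS replicate 1, Krt8, Krt18 and Sox9 turned to −0.31, −0.32 and −0.34; without PBS replicate 2, Epcam turned to 0.069 and Cd24a to −0.15; without G-CSF replicate 2, Sox9 turned to −0.15 and Cftr to −0.25. With 1 array left out, differences ranged from −0.31 to 1.22 for Krt8, −0.32 to 1.21 for Krt18, −0.58 to 0.069 for Epcam, −0.34 to 0.86 for Sox9, −0.15 to 1.51 for Cd24a and −0.25 to 1.42 for Cftr. Krt7, Krt19 and Prom1 kept their sign under every alternative that tested them. Same-numbered arrays did not vary together (r = −0.038 across 12187 genes between the replicate differences of both groups), so the numbers were not used as pairs; with the replicate block, 89 genes were called higher and 3 lower, and with specific probe sets only, 11 and 0. Centring on 11 hepatocyte genes, chosen after seeing the data, lowered all differences by 0.36, called 20 genes higher and 2 lower, and put Sox9 at −0.10. With the 75th percentile filter (5 of the 9 tested) and with specific probe sets only (4 tested), 4 and 4 were higher with G-CSF, and 0 lay without overlap, since Krt7 was not tested. The list of other keratins had no gene left under the 75th percentile filter. Genes higher with G-CSF numbered 5 to 8 with 1 array left out. The cause of the other changes was not tested. Krt7 and Cftr, near background, are limited by signal.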
